A study of Mus musculus with 18 samples.

Results

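FF and CF mice carry the same mitochondrial DNA (mtDNA) on different nuclear genomes, and the fragments of their mitochondrial arginine tRNA (mt-TR) were compared in liver. In the strain code the nuclear genome is written first and the mtDNA second, with F for FVB/NJ and C for C57BL/6J. FF was wild-type FVB/NJ, and CF was a mitochondrial-nuclear exchange (MNX) strain with a C57BL/6J nucleus and FVB/NJ mtDNA. These strains gave 3 libraries each, 6 of the 18 libraries of the series, and were chosen by their labels. All 6 came from livers of female mice. MNX lines were made by pronuclear transfer and bred in-house, whereas wild-type mice were bought from vendors, so the nuclear genome, MNX status and origin of the mice changed together between FF and CF and cannot be told apart. The labels give no ages, and the study gives only a range of weeks for healthy adult mice, not an age by sample. RNA was pooled before sequencing, and the number of animals behind a library was not given in the sources used here. P-values therefore measure only the spread between these libraries, which may be technical. The table held mt-TR reads alone, so the labelled tissue could not be checked against marker genes.

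A tRNA is cut from a longer transcript at both ends, receives the bases CCA at its 3′ end, and is loaded there with its amino acid. It folds into an acceptor stem, a D arm, an anticodon arm and a T arm, and loops between the stems are open to endonucleases. Pieces that persist are called tRNA-derived fragments (tRF). Although mt-TR is encoded by mtDNA, the enzymes that trim, modify, complete with CCA and degrade it are encoded in the nucleus and imported, so a nuclear swap on fixed mtDNA asks whether fragments of an identical tRNA differ with the nucleus.

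The mature mt-TR of mtDNA F is 72 nt long with its CCA. In mm10, which has C57BL/6J mtDNA, its gene mt-Tr (ENSMUSG00000064361.1) has 1 exon of 68 nt and lies on chromosome M from 9808 to 9875, plus strand. By complementarity in the F sequence, the acceptor stem joined nt 1 to 7 with nt 62 to 68, the anticodon stem nt 25 to 29 with nt 37 to 41, and the T stem nt 46 to 50 with nt 57 to 61. The region of the D arm, nt 10 to 24, held a run of A from nt 14 to 22. The fragments that carry the comparison are printed below the mature sequence, 5′ to 3′ as DNA letters, with the anticodon at nt 32 to 34 in capitals. Those from nt 1 keep the 5′ strand of the acceptor stem and lose its 3′ strand, and those to nt 72 keep the CCA.

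Mature mt-TR of mtDNA F, nt 1 to 72: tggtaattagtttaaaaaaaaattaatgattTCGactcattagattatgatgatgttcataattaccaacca
nt 1 to 53: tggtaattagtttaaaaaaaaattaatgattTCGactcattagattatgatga
nt 1 to 44: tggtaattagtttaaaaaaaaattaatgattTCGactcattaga
nt 11 to 53: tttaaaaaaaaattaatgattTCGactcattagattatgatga
nt 11 to 72: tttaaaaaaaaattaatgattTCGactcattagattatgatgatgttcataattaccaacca
nt 20 to 72: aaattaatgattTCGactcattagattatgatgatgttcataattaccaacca
nt 30 to 72: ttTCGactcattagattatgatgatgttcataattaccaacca

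The end at nt 53, in the T loop and 19 nt before the mature end, is called the site. It is homologous to position 9859 of mm10. The fragment of nt 1 to 53 is called predominant, since it had the highest mean share over the 6 libraries. Only reads of 40 to 69 nt were held, so full-length mt-TR and shorter fragments were not analysed here, and a CCA-ended read could begin only between nt 4 and nt 33.

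FF libraries held 14476, 12647 and 6548 reads and CF libraries 1815, 2361 and 189, so every FF library was deeper than every CF library. Values below are shares of the reads of a library, with replicates 1, 2 and 3 in that order. In CF replicate 3 a fragment without reads could still make up 1.59% of the library, the share that 3 reads allow. Libraries of the same strain differed by more than sampling noise in all 6 pairs (chi-square tests over fragments, p from 2.8e-184 to 1.2e-06), and none were merged. CF libraries were unlike each other. Replicate 2 lay between replicates 1 and 3 of CF and the FF libraries in most measures, though its depth was close to that of replicate 1. Of the 325 fragments of mtDNA F with reads, 278 had reads in FF, 211 in CF and 164 in both.

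Most reads of FF began at nt 1 and most ended at the site, and reads of CF more often ended with the mature CCA. Ends at the site made up 60.3%, 59.1% and 55.9% of reads in FF and 23.9%, 48.2% and 9.52% in CF. Every FF library lay above every CF library, by 31.2 percentage points in the mean. Ends with the mature CCA made up 2.998%, 5.38% and 6.48% in FF (4.95% ± 1.78, SD, n = 3) and 47.9%, 10.5% and 62.96% in CF (40.4% ± 27.01). The strains did not overlap here either, with the lowest CF library, replicate 2, at 10.5% (95% Wilson interval 9.33 to 11.8) and the highest FF library at 6.48% (5.90 to 7.10). Intervals and limits cover counting error only.

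**Figure D1:**
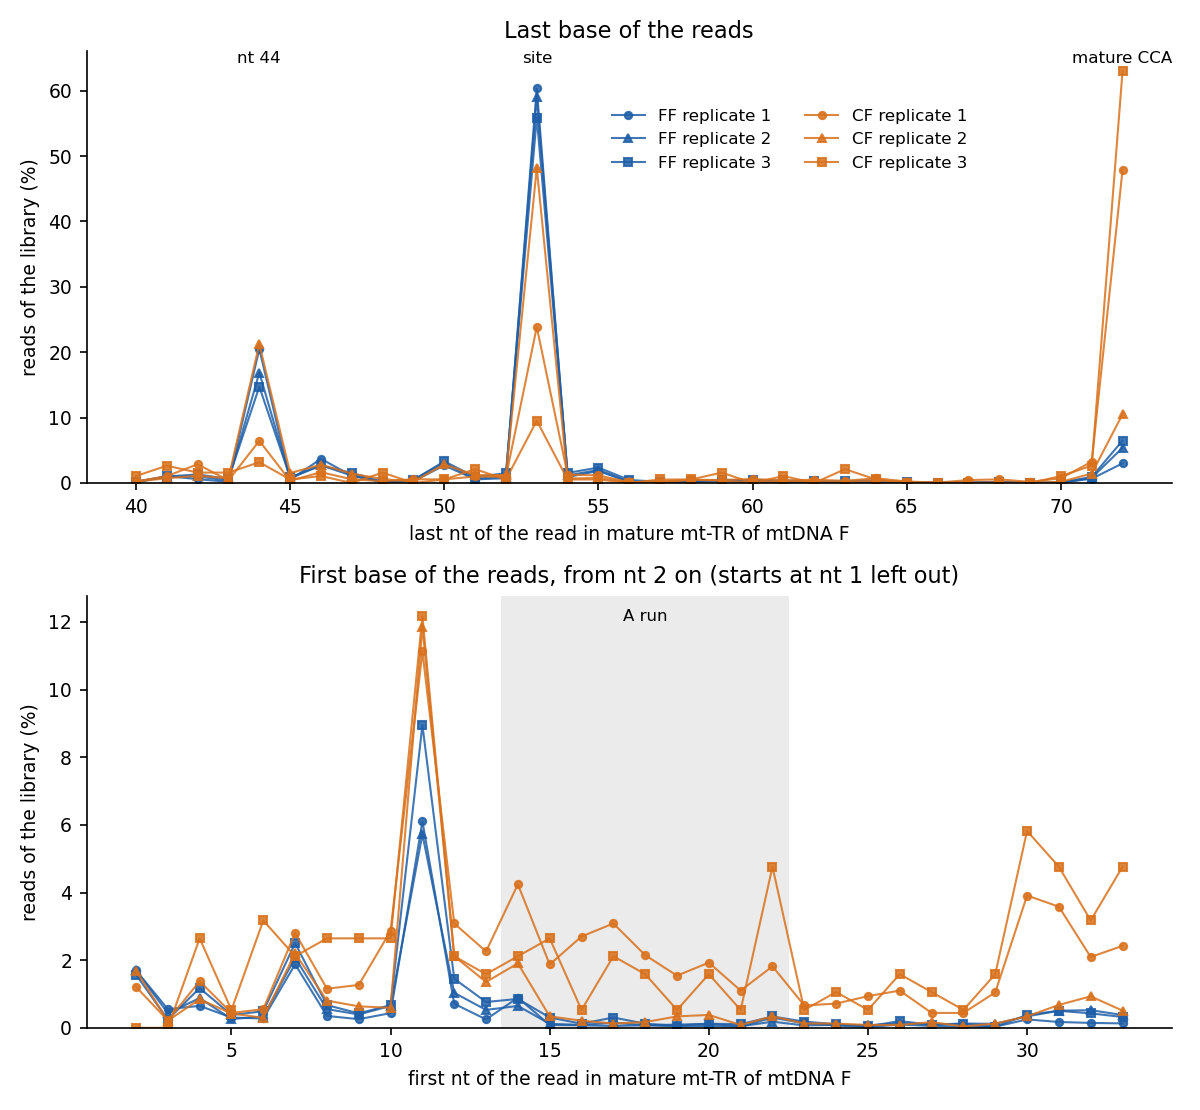
Share of reads of each library (%) by last nt (top) and by first nt from nt 2 on (bottom), for 3 FF libraries in blue and 3 CF libraries in orange. The FF libraries reach 55.9% to 60.3% at nt 53 and stay at or below 6.48% at nt 72, where CF libraries have 10.5% to 62.96%, and in the A run (grey) CF replicates 1 and 3 lie above the rest.

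Reads with an incomplete tail were likewise more frequent in every CF library than in every FF library, at a lower level. Those that ended 1 or 2 nt short of the mature end were 0.698%, 0.799% and 0.993% in FF and 3.97%, 1.61% and 3.70% in CF. Among all ends within 2 nt of the mature end, the complete CCA was present in 81.1%, 87.1% and 86.7% in FF and in 92.3%, 86.7% and 94.4% in CF. These ranges overlapped, and the means differed by -6.203 percentage points (two-sided exact permutation test, p = 0.2). Completeness of the tail, which is added to the tRNA after transcription, thus did not separate the strains as the share of CCA-ended reads did.

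The other frequent end, at nt 44 in the variable region, overlapped between the strains. It held 20.5%, 16.9% and 14.7% of reads in FF and 6.45%, 21.3% and 3.17% in CF, where replicate 2 exceeded every FF library (exact permutation test, p = 0.4). Among reads from nt 1 that ended at either nt 44 or nt 53, the site took 71.6%, 75.3% and 74.97% in FF. In CF it took 68.9%, 62.5% and 57.1%, below each FF library, with only 14 such reads in CF replicate 3 (95% Wilson interval 32.6 to 78.6). The interval of CF replicate 1, 64.0 to 73.5, also held the value of FF replicate 1.

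Starts were more dispersed in CF. Reads from nt 1, the 5′ end of the mature tRNA, made up 83.8%, 81.5% and 75.9% in FF and 33.8%, 69.8% and 25.9% in CF. Starts in the D-arm region, nt 10 to 24, made up 9.32%, 9.62% and 14.5% in FF and 41.2%, 20.1% and 36.5% in CF. Starts in the anticodon loop, nt 30 to 33, were 0.698%, 1.75% and 1.63% in FF and 12.01%, 2.46% and 18.5% in CF. None of these measures overlapped between the strains, and CF replicate 2 was each time nearest to FF. For starts at nt 30 to 33 its Wilson interval overlapped that of FF replicate 2. Starts at nt 2 to 9, in the acceptor strand and the linker after it, overlapped, with 5.97%, 6.63% and 7.47% in FF and 9.04%, 7.12% and 13.8% in CF (exact permutation test, p = 0.2).

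Within the D-arm region, nt 11 was the main start in both strains and the A run separated CF replicates 1 and 3 from the rest. Reads from nt 11 were 6.11%, 5.72% and 8.95% in FF and 11.1%, 11.9% and 12.2% in CF. Reads from the A run were 1.62%, 1.53% and 2.34% in FF and 20.4%, 3.90% and 16.4% in CF. A start inside a run of identical bases rests on the number of bases read, and its position was taken from the frame of the deposited table.

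**Figure D2:**
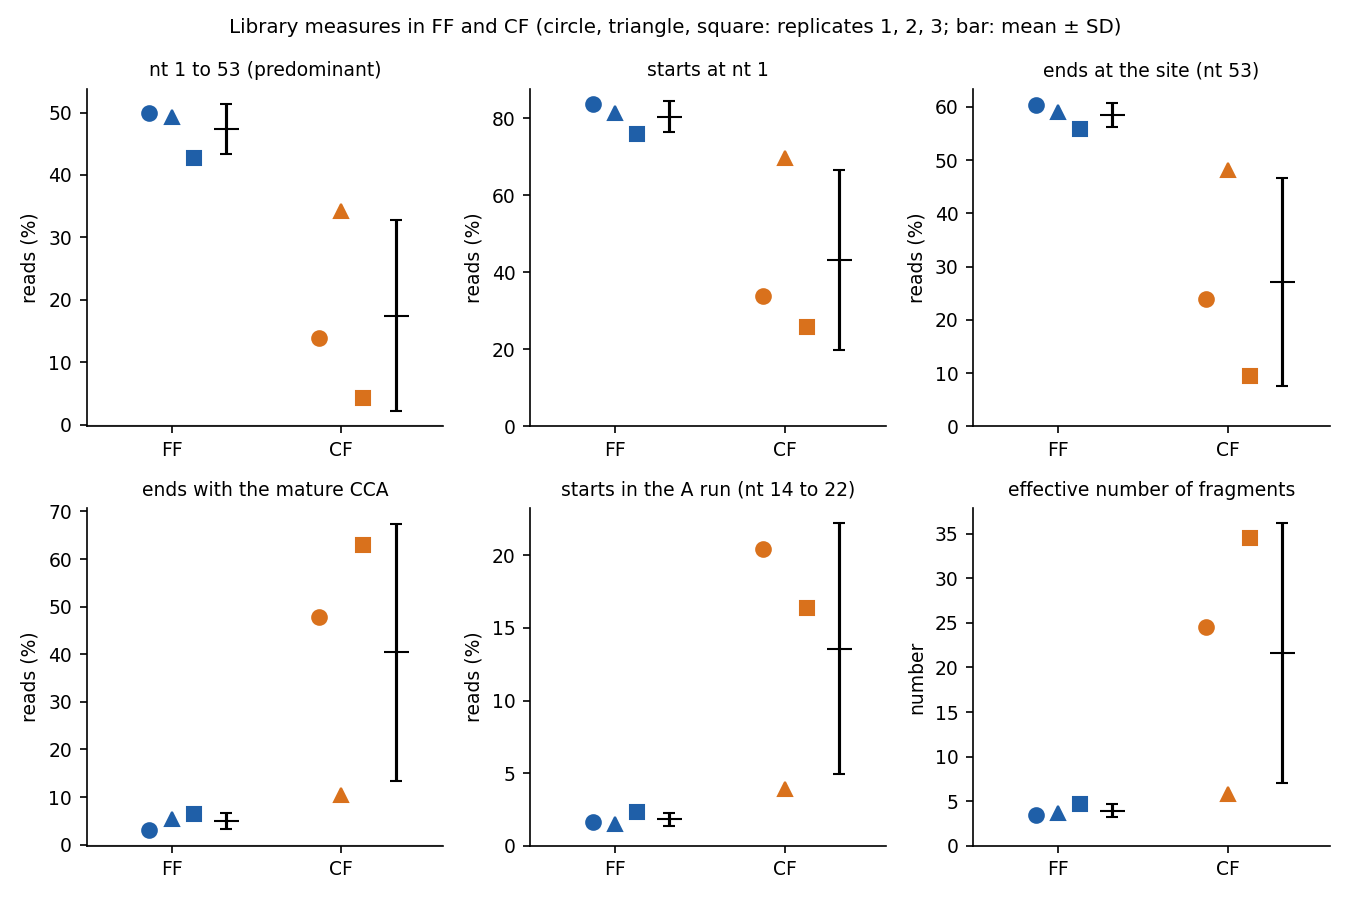
Library values of 6 measures, as percent of reads except for the effective number of fragments, in FF (blue) and CF (orange), with the mean ± SD in black beside each group. In all 6 measures the FF libraries lie together and do not overlap the CF libraries, whose replicate 2 (triangle) is nearest to FF.

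Which ends went with which starts was compared next. Of reads from nt 10 to 24, those with the mature CCA were 1.83%, 2.55% and 3.34% of the library in FF and 28.04%, 6.69% and 29.6% in CF. Those that ended at the site instead were 6.40%, 5.82% and 8.96% in FF and 7.88%, 10.5% and 3.17% in CF, and these ranges overlapped. In CF replicates 1 and 3 the excess of D-arm starts over FF thus lay mostly in reads that ran to the CCA, whereas in replicate 2 both kinds of read were above the FF mean. Put as a share of the reads from nt 10 to 24, the CCA end was present in 19.6%, 26.5% and 23.1% in FF and in 68.1%, 33.3% and 81.2% in CF. Reads from nt 2 to 9 differed in the same direction, with CCA ends in 5.67%, 11.7% and 14.5% in FF and 53.7%, 16.1% and 73.1% in CF. The Wilson intervals of CF replicate 2 (11.3 to 22.4) and FF replicate 3 (11.7 to 17.9) overlapped. Starts at nt 2 and 3 cannot be CCA-ended in this table, which lowers the share where they are frequent. Reads from nt 2 numbered 246, 215 and 103 in FF and 22, 40 and 0 in CF.

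The 5′ reads differed as well once CCA-ended reads were set aside. Among reads from nt 1, which cannot be CCA-ended in this table, 59.6%, 60.5% and 56.2% ended at the site in FF and 41.2%, 48.9% and 16.3% in CF. Among site-ended reads, 82.7%, 83.5% and 76.3% began at nt 1 in FF and 58.4%, 70.9% and 44.4% in CF. Reads from nt 11 made up 8.93%, 8.09% and 13.55% of site-ended reads in FF and 30.02%, 19.1% and 27.8% in CF, where each library lay above FF. With every read that ended within 2 nt of the mature end left out, the predominant fragment still made up 51.8%, 52.5% and 46.1% in FF against 28.9%, 38.9% and 12.7% in CF, without overlap. In CF replicate 3 these shares rest on few reads. They were 8 of 49 reads from nt 1 and, for nt 1 and nt 11, 8 and 5 of 18 site-ended reads. The last share was 8 of 63 reads.

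In reads rather than shares, CCA-ended reads numbered 434, 680 and 424 in FF and 869, 248 and 119 in CF. Those counts overlapped. Reads that ended more than 2 nt before the mature end numbered 13941, 11866 and 6059 in FF and 874, 2075 and 63 in CF. The lower totals of CF thus lay mostly in the reads without the mature end. Total mt-TR or total RNA per library was not in the table, so whether CF held more CCA-ended fragments or fewer 5′ fragments cannot be told apart, and the part of depth in these shares was not tested.

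The regions where CCA-ended reads began did not separate the strains. The D-arm region held 61.1%, 47.4% and 51.7% of their starts in FF and 58.6%, 63.7% and 47.1% in CF (difference of means -3.09 percentage points, exact permutation test, p = 0.8). The anticodon stem and loop, nt 25 to 33, held 27.6%, 38.2% and 31.6% in FF and 31.3%, 25.4% and 36.97% in CF (difference 1.27, p = 0.7 in the same exact test). With 3 libraries a strain, these p-values do not show that the strains are alike. Among single starts the highest strain mean was that of nt 11 in CF and of nt 14 in FF. At nt 11 a mean of 7.63% of CCA-ended reads began in FF and 11.005% in CF, and at nt 14 these were 10.6% and 8.20%. Libraries of a strain disagreed, since nt 14 held 16.1%, 7.94% and 7.78% in FF, where replicate 2 had 8.53% at nt 31. In CF replicate 1, nt 14 (7.94%) stood above nt 11 (5.52%). Each base from nt 30 to 33 in the anticodon loop had 5.46% to 7.05% in FF and 5.47% to 6.59% in CF. Starts at nt 15 to 21, inside the A run, were 10.6%, 9.26% and 13.2% in FF and 26.1%, 11.7% and 15.1% in CF, where replicate 1 stood highest (exact permutation test, p = 0.2).

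**Figure D3:**
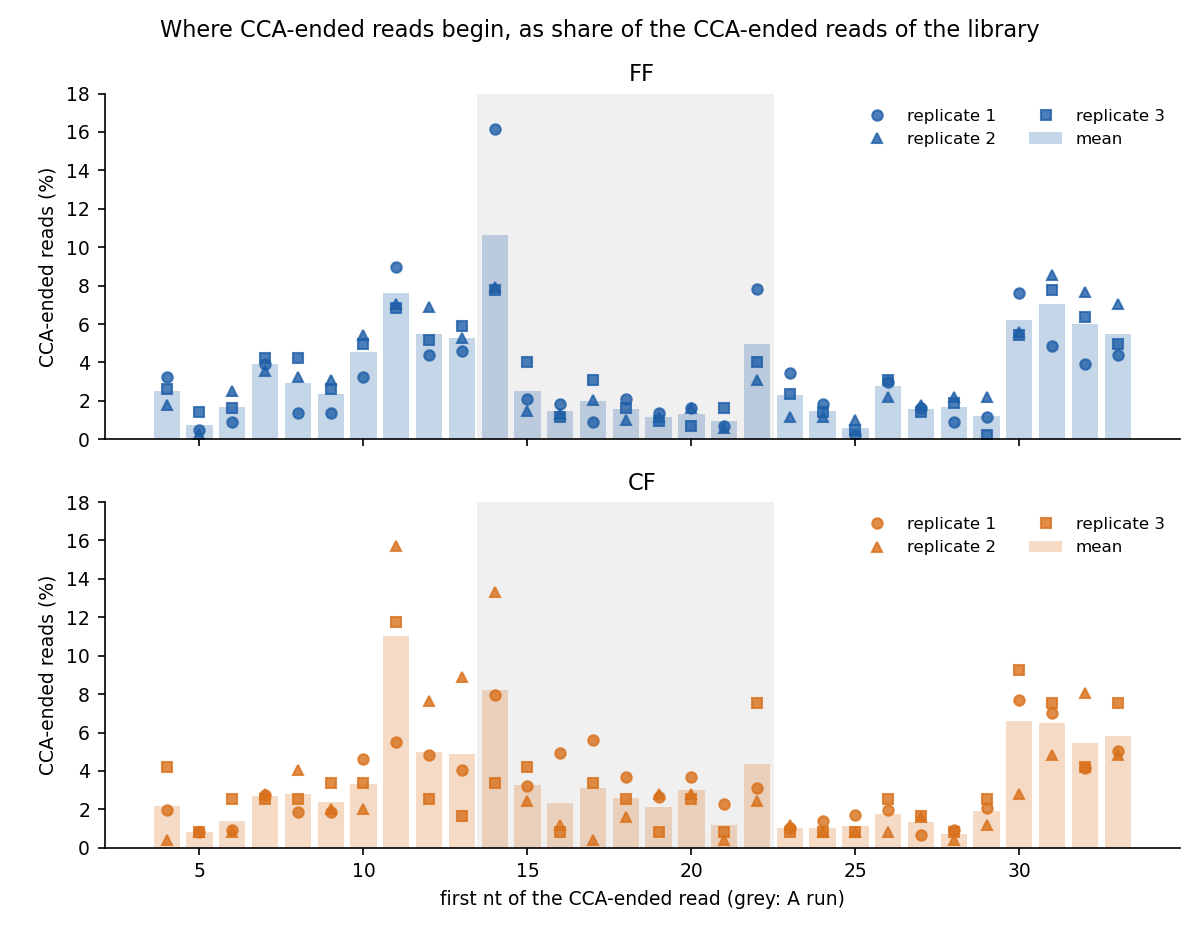
Share of the CCA-ended reads of a library (%) that begin at each nt from 4 to 33, for FF (top) and CF (bottom), with points for the 3 replicates and bars for their mean. Both strains have maxima near nt 11 to 14 and nt 30 to 33, and CF replicate 1 has the highest points at nt 16 to 18 of either strain.

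Read lengths reflect the same starts and ends. Lengths of 50 to 54 nt, which include the predominant fragment, were 56.5%, 56.6% and 51.5% of reads in FF and 25.7%, 41.5% and 15.3% in CF. Lengths of 55 nt or more were 4.95%, 7.21% and 9.51% in FF and 32.3%, 9.996% and 39.7% in CF. Mean length did not separate the strains, at 49.7, 50.1 and 49.97 nt in FF and 51.3, 49.2 and 51.9 nt in CF (exact permutation test, p = 0.4). The effective number of fragments, the inverse of the summed squared shares, was 3.40, 3.65 and 4.72 in FF and 24.5, 5.85 and 34.6 in CF, so FF libraries were dominated by few sequences.

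Of the 20 library measures tested, 12 did not overlap between FF and CF. Some of these 12 separated by no more than counting error, since Wilson intervals of the nearest libraries overlapped. For reads of 55 nt or more these were 8.85 to 11.3 in CF replicate 2 and 8.83 to 10.2 in FF replicate 3. For starts at nt 30 to 33 they were 1.91 to 3.16 in CF replicate 2 and 1.53 to 1.99 in FF replicate 2. For ends 1 or 2 nt short they were 1.17 to 2.20 in CF replicate 2 and 0.78 to 1.26 in FF replicate 3. Each of those 12 had p = 0.1 in a two-sided exact permutation test over 20 arrangements, the smallest that 3 against 3 libraries can give, and a Benjamini-Hochberg adjusted p = 0.17. The design could not reach 0.05, and the measures, which count the same reads in several ways, are not independent of each other. The other 8 had raw p from 0.2 to 1.0. Of the 15 further shares, which were added after the values were seen (nt 11 and A-run starts, all starts from nt 2 on, tail completeness and shares within a start or end), 11 did not overlap, and their p-values were not adjusted. Among these 11, starts from nt 2 on are the complement of starts at nt 1, so their outcome was already fixed.

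Single fragments were then tested with edgeR across the 67 fragments that could be listed in all 3 mtDNA types and passed the filter on low counts. A fragment was called at an adjusted p under 0.05. The 67 held 86.8% to 96.4% of the reads of an FF or CF library, and 258 fragments of mtDNA F were not tested. Calls lower in FF numbered 23, or 34.3% of fragments tested, and calls higher in FF numbered 0 (0.0%), where 28 fragments had an unadjusted p under 0.05. Groups did not overlap in 27 fragments, 40.3% of those tested, of which 20 were lower and 7 higher in FF. Both held for 15 fragments.

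All 23 calls ended with the mature CCA. Of the 28 CCA-ended fragments tested, every one had a negative log2 fold change of FF over CF, from -4.17 to -1.58 with a median of -2.84, against a median of -1.23 over all 67, with the library total as scale, whereas DESeq2 left 19 of the 28 negative with a median of -0.21. By start, 4 of 5 were called in nt 2 to 9, 13 of 14 in nt 10 to 24, 2 of 5 in the anticodon stem and 4 of 4 in the anticodon loop. Every tested start from nt 15 to 22 was called. The remaining groups had none, with 0 of 11 site-ended fragments called (median 0.36), 0 of 14 that ended before the site (0.19), 0 of 9 past it (-0.07) and 0 of 5 that ended 1 or 2 nt short (-1.27).

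**Figure D4:**
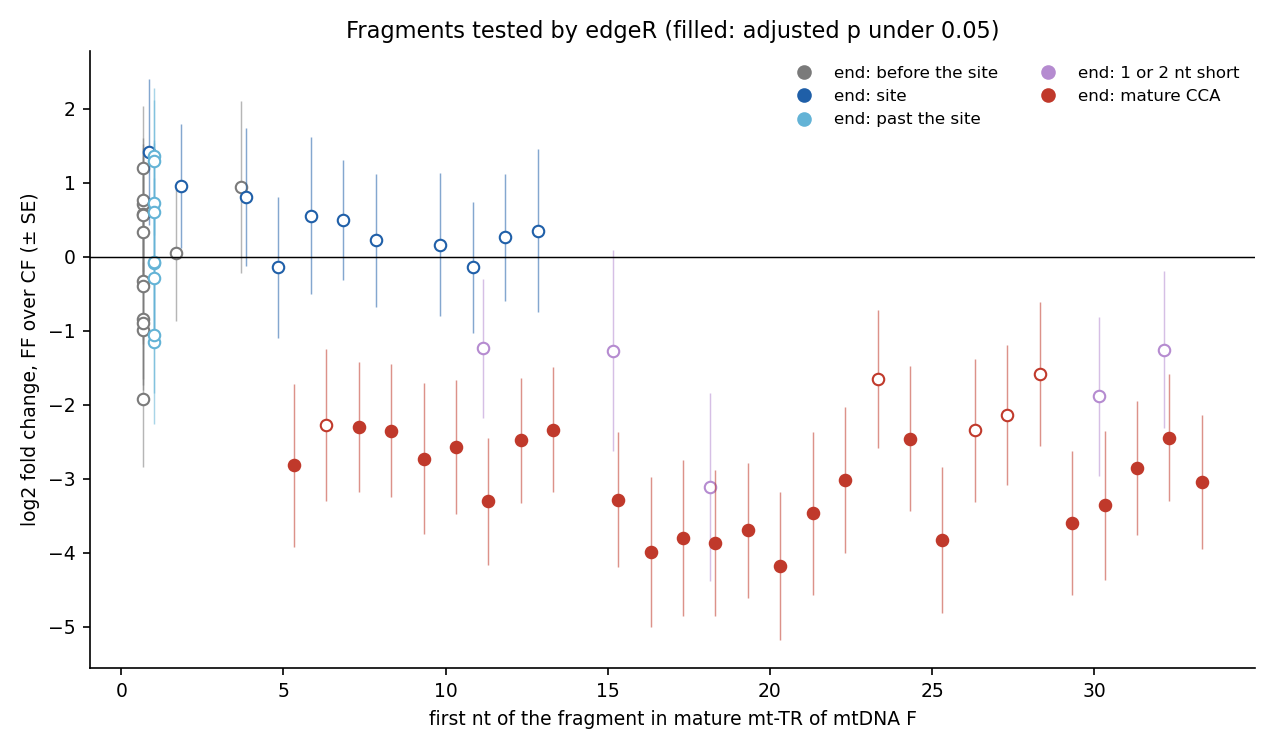
Log2 fold change of FF over CF (± SE, edgeR, library total as scale) of the 67 fragments tested against the first nt of the fragment, coloured by the class of its last nt, with filled points for an adjusted p under 0.05. The 28 CCA-ended fragments lie between -4.17 and -1.58 and 23 of them are filled, while site-ended fragments lie between -0.14 and 1.42 and none is filled, and with DESeq2 scaling 19 of the 28 stay negative.

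The largest called change was that of nt 20 to 72, whose groups did not overlap and which begins inside the A run. It had 7, 11 and 3 reads in FF and 32, 7 and 3 in CF, or 604 ± 231 and 12156 ± 8008 normalised reads (reads per 1000000 reads of the library, SD, n = 3). Its log2 fold change was -4.17 ± 0.999 (SE, edgeR adjusted p = 0.0045). The fragments of nt 16, 18 and 19 to 72, from the same run, followed at -3.99 ± 1.02, -3.86 ± 0.99 and -3.70 ± 0.92, each with the same edgeR adjusted p of 0.0045. Next to these, nt 25 to 72 begins with the anticodon stem and had 1, 7 and 2 reads in FF and 15, 2 and 1 in CF (-3.82 ± 0.98, edgeR adjusted p = 0.0045). These changes rest on few reads, and CF replicate 1 held most of those in CF.

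More abundant CCA-ended fragments changed in the same direction. That of nt 11 to 72, which has lost the 5′ acceptor strand, ranked 5 over the 6 libraries. It had 39, 48 and 29 reads in FF and 48, 39 and 14 in CF, or 3639 ± 878 and 39013 ± 30767 normalised reads, and its groups did not overlap (-3.30 ± 0.86, edgeR adjusted p = 0.0045). In CF replicate 3 it was the most abundant fragment of the library. That of nt 30 to 72, a 3′ piece that opens in the anticodon loop, had 33, 38 and 23 reads in FF and 67, 7 and 11 in CF. It was called (-3.36 ± 1.01, edgeR adjusted p = 0.011), but CF replicate 2, at 7 reads, lay within the FF range. Also abundant, nt 14 to 72, from the first A of the run, was not tested in the fit above. There the gap that aligns the mtDNA types lay at the left of the run. This placement leaves the fragment without a homologue in C57BL/6J mtDNA, whereas with the gap at the right it has one. The fragment had 70, 54 and 33 reads in FF and 69, 33 and 4 in CF, which made 4715 ± 399 and 24386 ± 12339 normalised reads without overlap.

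The predominant fragment, nt 1 to 53, had 7226, 6235 and 2794 reads in FF and 253, 807 and 8 in CF. As shares these were 49.9%, 49.3% and 42.7% in FF and 13.9%, 34.2% and 4.23% in CF, so that the lowest FF library exceeded the highest CF library. In the edgeR fit it was not called (log2 fold change 1.42 ± 0.99, adjusted p = 0.31). The shorter fragment from the same 5′ end, nt 1 to 44, had 19.8%, 16.2% and 14.2% in FF and 6.28%, 20.5% and 3.17% in CF, which overlapped (0.71 ± 0.90, edgeR adjusted p = 0.59). By contrast in sign, nt 11 to 53, which lacks the 5′ acceptor strand, had 5.39%, 4.78% and 7.57% in FF and 7.16%, 9.19% and 2.65% in CF (-0.14 ± 0.88, edgeR adjusted p = 0.92).

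Other 5′ fragments were rarer. The fragment of nt 1 to 55, past the site in the T loop, had 246, 225 and 134 reads in FF and 15, 16 and 1 in CF. Its FF libraries were all above CF, at 18416 ± 1818 against 6777 ± 1487 normalised reads (1.37 ± 0.75, edgeR adjusted p = 0.17). For nt 1 to 50, which ends with the first strand of the T stem, there were 319, 315 and 169 reads in FF and 8, 51 and 0 in CF (1.21 ± 0.84, edgeR adjusted p = 0.31). Without CF replicate 2 it was called, at 2.80 with an edgeR adjusted p of 0.032. That of nt 1 to 42 had the opposite sign, with 81, 125 and 83 reads in FF and 51, 26 and 3 in CF (-0.99 ± 0.81, edgeR adjusted p = 0.40). All 10 sequences that the study lists for FF and CF were tested. It chose them by normalised reads in these libraries and by size against its Northern blots. Of these 10, 2 were called lower in FF, those of nt 11 to 72 and nt 30 to 72, 0 were called higher, and the median log2 fold change was 0.60, beside 34.3% called lower and a median of -1.23 over the 67 fragments tested.

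The direction of calls depended on the scaling, since shares of a library sum to a fixed total. With TMM factors edgeR called 1 fragment higher and 7 lower in FF, and DESeq2 with its own size factors called 6 higher and 0 lower. Over the 67 fragments the median log2 fold change moved from -1.23 to -0.15 and 0.97. Relative to that median, CCA-ended fragments lay at -1.60 with the library total, -1.19 with TMM and -1.18 with DESeq2, and site-ended fragments at 1.59, 1.46 and 1.47. CCA-ended fragments were thus lower than site-ended ones in FF against CF under the 3 scalings. A scaling moves all fragments of a library together, so this gap could hardly change and the 3 scalings are not separate support for it. The medians of both groups kept their sign under the 3 scalings, at -2.84, -1.34 and -0.21 for CCA-ended and 0.36, 1.31 and 2.43 for site-ended fragments. They turned in settings added after the data were seen, to 0.08 for CCA-ended fragments with CCA-ended reads as library size and to -0.59 for site-ended fragments with site-ended reads as library size. Calls also rested on single libraries. Without CF replicate 1 only 1 was left, without FF replicate 1 there were 7, without FF replicate 2 or CF replicate 3 there were 10 each, and without CF replicate 2 there were 28.

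The nuclear swap on mtDNA F was finally set against the swaps on mtDNA C (C57BL/6J), CC against HC, and on mtDNA H (C3H/HeN), HH against CH, where H also stands for a C3H/HeN nucleus and HC and CH are MNX strains. FF exceeded CF by 29.8 percentage points in the predominant fragment, where CC exceeded HC by 14.8 and HH exceeded CH by 0.683. For CCA-ended reads the differences were -35.5 in FF against CF, -17.5 in CC against HC and -1.19 in HH against CH. Over predominant fragment, starts at nt 1, ends at the site and CCA ends, none of the 8 differences between swaps passed, the smallest unadjusted p being 0.085 (exact permutation tests over 400 arrangements, adjusted p = 0.50 against CC and HC and 0.36 against HH and CH). Labels were permuted within each mtDNA type, so the null was no difference between strains in either type. Unlike a null of equal differences, it does not allow for an effect in 1 of the swaps. In edgeR, 0 of 67 fragments (0.0%) differed between the swaps on F and C, with 5 at an unadjusted p under 0.05, and DESeq2 called 0. Between the swaps on F and H, 2 of 67 (2.99%) were called, with nt 18 to 72 at -4.59 ± 1.35 (SE, edgeR adjusted p = 0.048) and nt 19 to 72 at -4.73 ± 1.25 (edgeR adjusted p = 0.032), while DESeq2 called 0. The wild-type strain held more reads than the MNX strain in the mean of each swap. The swaps on mtDNA C and H both compare C57BL/6J and C3H/HeN nuclei, whereas that on mtDNA F compares FVB/NJ and C57BL/6J nuclei. Each difference was taken as wild-type minus MNX strain. The C57BL/6J nucleus is thus the wild-type side on mtDNA C and the MNX side on mtDNA F and H. Differences of like sign are therefore not like changes of nucleus.

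**Figure D5:**
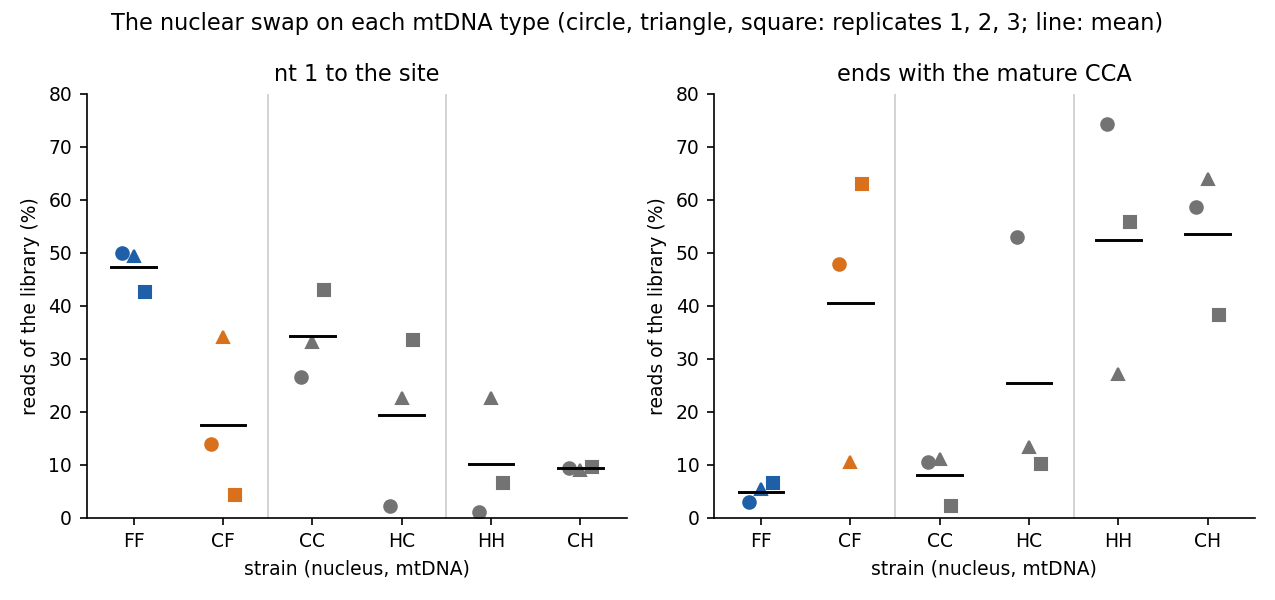
Share of reads (%) of the predominant fragment (left) and of CCA-ended reads (right) in the 3 libraries of each strain, with FF and CF in colour, the other swaps in grey and a line at the mean. FF libraries lie at 42.7% to 49.9% and 2.998% to 6.48%, apart from CF, while HH and CH overlap in both panels.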

How the data were processed

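Small RNA of mouse liver was sequenced in 18 libraries, of which the 3 of FF and 3 of CF are described. RNA had been treated to remove blocked ends and some base methylation. Per the labels and methods, the authors extracted unique molecular identifiers (UMI-tools 1.1.6), trimmed adapters (cutadapt 5.0), mapped reads to the mature mt-TR of each mtDNA type without mismatches (Bowtie 1.3.1), collapsed duplicates and removed sequences found elsewhere in mm10. The submitters' processing notes also name FastQC 0.12.1 and BWA 0.7.18. The deposited values are raw counts of reads per sequence and library, and 0 columns were without a sample. The F sequence was assembled from sequences the study lists, and all 325 rows with F reads matched it.

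Starts, ends and lengths were counted as shares of each library. FF and CF were compared in 20 such measures with exact permutation tests (two-sided), adjusted after Benjamini and Hochberg. Fragments were aligned across mtDNA types, 450 of 519 could be listed in every type, and these were tested with edgeR 4.0.16 (quasi-likelihood test, filterByExpr, library total as library size, all 18 libraries in one fit, R 4.3.3). A standard error is the fold change divided by the square root of F. Python 3.11.15, scipy 1.17.1 and DESeq2 1.42.0 served the other tests. Scripts were tested on simulated data. The alternatives were other scalings, tools, filters and gap placement, the 6 libraries alone, a replicate block, and each FF or CF library left out. Named fragments were the 12 with the highest mean, the 5 with the largest called change without overlap, the most abundant of each class, the CCA-ended series and the study's list. The members, lists and tests were chosen with earlier results of these data known.

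Whether replicate numbers pair libraries was checked by the correlation of deviations from strain means between same-numbered libraries (r of -0.31, -0.18 and 0.40 over 53 fragments), so they were treated as unpaired. Depth was 189 to 14476 reads per library.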

Additional observations from a re-analysis of the deposited data

Results flagged for a closer look

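The difference between the swaps on mtDNA F and mtDNA H was tested as an interaction, and 2 fragments differed in edgeR. Both are CCA-ended fragments that begin in the A run. For nt 18 to 72 the interaction was -4.59 on the log2 scale. Normalised reads of it were 748 ± 280 in FF and 11733 ± 8738 in CF, against 17376 ± 8252 in HH and 11230 ± 8978 in CH (SD, n = 3). For nt 19 to 72 it was -4.73, with 553 ± 120 in FF and 6976 ± 5068 in CF, against 17730 ± 10069 in HH and 7762 ± 6844 in CH. Reads of nt 19 to 72 were 23, 7 and 1 in the CF libraries and 0, 3 and 24 in the CH libraries, where 191 reads in CH replicate 1 allow up to 3 for a count of 0. Neither was called without CF replicate 1, FF replicate 1 or FF replicate 2, nor by DESeq2. The part of depth in these differences was not tested.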

How the results depend on the processing

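For FF against CF, the 23 calls became 8 with TMM factors, 6 with DESeq2 and 13 without a filter on low counts, and 23 of 68 with the gap at the right, of which 21 were shared with the 23. With the replicate block, in the 6 libraries of FF and CF alone, 13 were called, and 16 without the block in those libraries. Of those 16, all lower in FF, 15 ended with the mature CCA and 1 began at nt 1. The block fits fewer fragments, 42. In the block test of library measures by sign flips, p could not go below 0.25. Leaving out 1 library gave 1 to 28 calls. In settings added after the data were seen, CCA-ended reads as library size gave 6 calls, all higher in FF and none shared with the 23, and site-ended reads gave 0 of 76, with 30 at an unadjusted p under 0.05.

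Against CC and HC, leaving out 1 FF or CF library gave 0 to 1 calls. Against HH and CH it gave 0 to 17, and DESeq2 and the fit without a filter gave 0 each. Log2 fold changes that turned sign were the uncalled ones of nt 11 to 53 (0.66 with TMM, 1.67 with DESeq2, 1.85 with CCA-ended reads, and -0.47 to 0.20 with 1 library left out, positive without CF replicate 2), nt 1 to 42 (0.15, 1.29 and 1.55 in the first 3 of these), and the called one of nt 31 to 72 (0.13 with CCA-ended reads). With site-ended reads, nt 1 to 44 turned to -0.26, nt 1 to 46 to -0.23 and nt 7 to 53 to -0.59. The cause was not tested. Of the library measures, 3 that overlapped between strains turned sign when 1 library was left out. The share of nt 11 to 53 ranged from -2.26 to 1.01, CCA-ended starts at nt 10 to 24 from -7.79 to 0.54 and those at nt 25 to 33 from -1.64 to 4.14, which became -0.10 with ends taken within 1 nt. The 12 measures without overlap kept their direction in every alternative. Most of these alternatives could not turn it. Groups without overlap keep the sign of their difference when 1 library is left out. Sign flips use the same difference, and a share of summed reads stays within the range of its strain. Those settings are therefore not separate support. Depth limits CF replicate 3 most, where 3 reads are 1.59%.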
